A study of Mus musculus with 15 samples.

Results

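The 4 wild type arrays of a study of 15 arrays were examined here for the level of each gene in the cells themselves. The other 11 arrays carried cells without p27 (p27 knock-out, n = 4), without stathmin (stathmin knock-out, n = 4) or without either protein (double knock-out, n = 3); p27 is made from Cdkn1b and restrains cyclin-dependent kinases, and stathmin is made from Stmn1 and destabilises microtubules. All cells were mouse embryonic fibroblasts on a C57B6 background, taken from embryos of day 13.5 and used at passage 3. They were lysed in the dish at high confluence after 24 h without serum, with no other agent added. The labels call the 4 wild type arrays biological replicates, but do not say whether they came from separate embryos or litters. No wild type array was left out, and no gene's value entered the choice of arrays.

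Mouse embryonic fibroblasts are grown from minced embryos, so a culture starts as a mixture in which mesenchymal cells of skin, body wall and limb soon prevail. Fibroblasts make and secrete the collagen-rich matrix and hold a contractile actin cytoskeleton. Serum withdrawal at confluence is a common way to bring such cells towards rest, and a renewed serum or stress signal switches on the immediate-early genes within minutes.

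Each array is an Agilent 2-colour microarray on which labelled RNA binds probes fixed to glass. The Cy5 (red) channel held the wild type RNA, and the Cy3 (green) channel held the same pooled fibroblast reference RNA on every array, with no dye swap. A gene's level is the log2 of its red signal, less the local background, after each array was scaled to a common 75th percentile; signals under 20 units were set to 20. The brightest probe stood for a gene, and its mean over the 4 arrays was ranked over 19504 genes, so that a percentile of 100 marks the brightest gene. The brightness of a probe depends on its sequence as well as on its RNA, so a percentile ranks signals and is not a count of molecules. Among 5256 genes with more than 1 probe well above background, the brightest and dimmest probe differed by a median of 2.55 on the log2 scale.

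The 4 arrays had a median signal of 202, 370, 302 and 335 units, with wild type 1 the dimmest, against 19.1 to 23.6 units for the median negative control. The scanner software called 61.4, 73.6, 75.5 and 59.3% of the spots well above background. The share moved with the slide, since all arrays of slide 3 lay between 71.3 and 78.9% and all of slide 4 between 59.3 and 63.9%. Wild type arrays averaged 67.5 ± 8.29% (SD, n = 4) and knock-out arrays 67.9 ± 6.13% (SD, n = 11), a difference of -0.47 percentage points (two-sided exact permutation test, p = 0.92; p = 0.79 with labels exchanged within slides only). The difference was 1.55 points without wild type 1 and 2.25 points without wild type 4, so its sign was not settled. The number of arrays limits the precision of every comparison.

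The 4 genes used to mark fibroblasts were among the brightest of the array. Col1a1, which encodes a chain of type I collagen, read 20.12, 19.14, 19.51 and 19.37 on wild type 1 to 4, at percentile 99.95. Col3a1, the chain of type III collagen, read 19.68, 19.16, 19.34 and 19.38. Vim, the intermediate filament of mesenchymal cells, read 20.05, 18.86, 19.30 and 19.29, and Sparc, a collagen-binding matrix protein, read 19.28, 18.97, 19.05 and 19.07. All 4 cultures were thus high for all 4 genes. Of 15 fibroblast markers, 14 were well above background on 4 of 4 arrays and 10 lay in the top 5%; over all genes these shares were 68.3 and 4.90%. Other probes of the same genes were far dimmer: a second Vim probe averaged 6.34 and the dimmest Col3a1 probe 4.99. Ranking by the mean of all probes therefore moved Col3a1 from percentile 99.85 to 62.4 and Vim from 99.84 to 78.4.

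Genes fell into 4 classes. A total of 956 genes (4.90%) were abundant, defined as well above background on 4 of 4 arrays and in the top 5% by level; they began at a mean level of 16.53. Another 12357 genes (63.4%) were well above background on 4 of 4 arrays at lower levels, with a median of 12.53. A further 3734 genes (19.1%) were well above background on 1 to 3 arrays, among them 67 genes that missed an array only because their spot was set aside as an outlier. The remaining 2457 genes (12.6%) were well above background on 0 of 4 arrays; their mean levels ended at 6.57. The signal was spread over many genes: the 100 brightest genes held 18.8, 13.2, 14.6 and 14.5% of the summed signal of the 4 arrays.

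**Figure D1:**
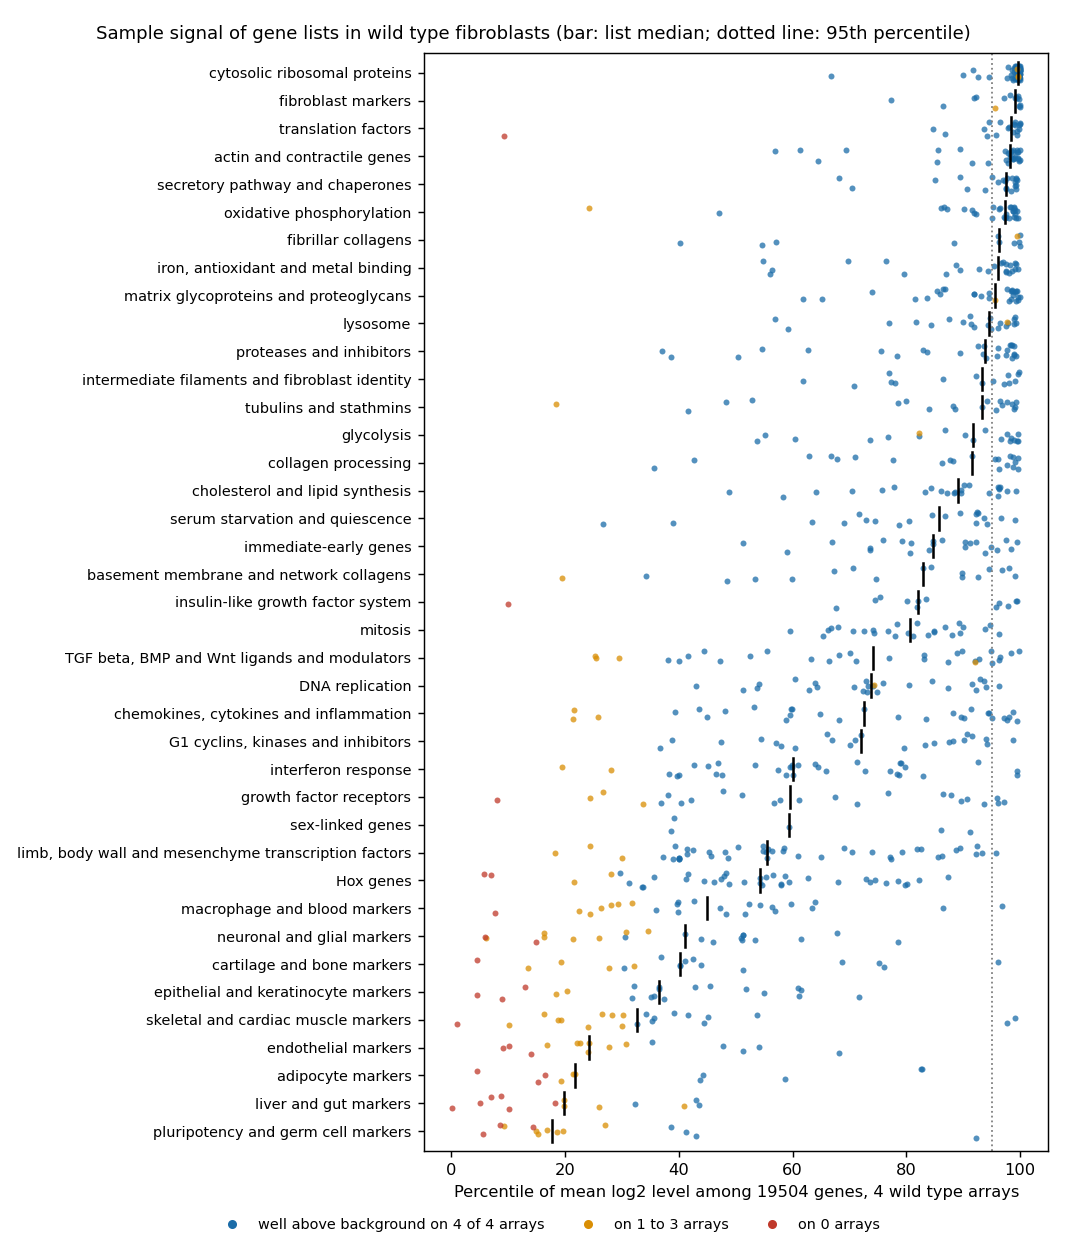
Percentile of the mean log2 level of each measured member of 39 gene lists (1 point per gene) on the 4 wild type arrays, with the list median as a bar and the 95th percentile as a dotted line. Ribosomal proteins, fibroblast markers, translation factors and actin genes have medians above percentile 98, while markers of liver and gut and of pluripotent cells have medians under 20.

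Most of the brightest 25 genes encode parts of the protein synthesis machinery. Among them were the ribosomal proteins Rplp2, Rps23, Rpl5 and Rps3a1, the elongation factors Eef1g and Eef1a1, the ribosome scaffold Rack1, Col1a1 and Col1a2, the smooth muscle actin Acta2, the actin-binding thymosin Tmsb4x, and Spp1, which encodes the secreted phosphoprotein osteopontin. Rplp2 led with 20.14, 19.22, 19.62 and 19.37. The highest value of any gene on each array was 20.14, 19.22, 19.62 and 19.38, so these genes sat at the ceiling of the scanner, and every one of the 25 was saturated on 2 to 4 arrays. Before scaling, the highest spot signal was 647011, 642176, 627274 and 642232 units, beside 75th percentiles of 3174, 6032, 4360 and 5375. The scaling therefore set the height of the ceiling on each array, highest on wild type 1. The order of these genes is bounded by the ceiling. Their differences between arrays near it cannot be read as differences between cultures. In all, 61 genes were saturated on at least 1 wild type array.

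Of 79 cytosolic ribosomal proteins, 71 were abundant, 76 were well above background on 4 of 4 arrays, and the median percentile was 99.7. The dimmest was Rpl21, at percentile 66.8. Translation factors followed, with 14 of 20 abundant; the exception was Eef1a2, the elongation factor form of muscle and neurons, which was well above background on 0 of 4 arrays. Oxidative phosphorylation had 21 of 30 genes abundant, led by the ATP synthase gene Atp5b (19.71 on wild type 1 and 18.55 to 19.02 on the others), the carrier Slc25a4 and Cox6a1. In glycolysis 8 of 19 genes were abundant, led by Ldha, Pgam1 and Pgk1. Ldha, which makes lactate, read 19.82, 18.68, 19.19 and 19.02. Chaperones and the secretory pathway had 15 of 22 abundant, with Hspa8, Hsp90aa1 and Pdia3 at the top. Iron-binding and antioxidant genes had 13 of 24 abundant, led by the ferritin chains Fth1 and Ftl1.

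The ribosomal protein genes also differed from other genes in the sequence before their start. RefSeq windows of 250 bases before to 50 bases after the start (GRCm38.p6) were matched to 15452 genes by symbol, the first listed window standing for a gene. The letters CGGAAG, the core that ETS factors bind, were searched on both strands. They were in 40 of 58 windows of ribosomal protein genes (69.0%), in 35.1% of windows of abundant genes, 29.6% of other genes on 4 of 4 arrays, 9.69% of genes on 1 to 3 arrays and 7.25% of genes on 0 of 4 arrays; the share over every RefSeq window was 17.2%. Both windows below are from genes in the top 1% and show, in capitals, CGGAAG or its reverse complement in the 250 bases before the start.
Rplp2: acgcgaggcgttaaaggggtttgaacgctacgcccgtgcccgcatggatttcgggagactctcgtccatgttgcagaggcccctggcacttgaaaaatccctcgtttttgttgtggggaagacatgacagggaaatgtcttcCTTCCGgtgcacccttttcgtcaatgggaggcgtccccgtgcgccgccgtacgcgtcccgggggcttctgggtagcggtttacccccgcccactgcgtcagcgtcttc
Rpl38: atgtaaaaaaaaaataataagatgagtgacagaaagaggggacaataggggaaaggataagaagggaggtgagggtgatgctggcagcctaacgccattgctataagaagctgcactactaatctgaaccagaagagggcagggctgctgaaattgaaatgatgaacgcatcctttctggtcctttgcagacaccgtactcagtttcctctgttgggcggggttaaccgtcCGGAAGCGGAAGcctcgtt
The first lies at chr7:141447401-141447650 and the second at chr11:114668330-114668579, both on the plus strand.

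Base composition moved with the class in the same way. The median GC content of the window was 61.7% for abundant genes, 60.3% for other genes on 4 of 4 arrays, 51.7% for genes on 1 to 3 arrays and 48.3% for genes on 0 of 4 arrays. The GC box letters GGGCGG were in 69.0, 62.1, 29.4 and 20.5% of these classes in turn, and the TATA letters TATAAA in 11.5, 7.97, 19.5 and 21.0%. A window rich in G and C holds CGGAAG and GGGCGG more often for that reason alone, and this was not separated here.

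The matrix genes were bright as a group. Of 11 fibrillar collagen genes 10 were well above background on 4 of 4 arrays and 6 were abundant: Col1a1, Col1a2, Col3a1, Col5a1, Col11a1 and Col2a1, the last being the collagen of cartilage. Col5a1, which nucleates collagen fibrils, was among the steadiest, at 18.33, 18.34, 18.41 and 18.42. The lowest was Col11a2, at percentile 40.3. In the basement membrane and network group 16 of 17 were well above background on 4 of 4 arrays, led by Col6a3, Col4a1 and Col6a1. Col4a1, a chain of basement membrane collagen, was lowest on wild type 1 (16.88) and between 17.72 and 18.10 on the other arrays. Col6a3 depends on the probe, falling from percentile 99.0 to 53.8 when its 3 probes were averaged.

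All 21 collagen processing genes were well above background on 4 of 4 arrays and 10 were abundant. Serpinh1, the collagen chaperone of the endoplasmic reticulum, read 19.51, 18.92, 19.15 and 19.06, and Lox, which crosslinks collagen, read 19.12, 18.90, 19.04 and 19.15. Of 29 matrix glycoproteins and proteoglycans 28 were well above background on 4 of 4 arrays and 14 were abundant. Spp1, Fbln2 and Sparc led, and Fn1, the fibronectin gene, was lowest on wild type 1 at 18.33 and highest on wild type 4 at 18.80. Among 26 proteases and their inhibitors, all were well above background on 4 of 4 arrays and 12 were abundant, with the cathepsins Ctsl and Ctsb and the cysteine protease inhibitor Cst3 at the top.

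Contractile genes were as bright as the matrix. All 30 actin and contractile genes were well above background on 4 of 4 arrays and 21 were abundant. Acta2, the smooth muscle actin of contractile fibroblasts, read 20.01, 19.20, 19.61 and 19.37, and Myl6, a myosin light chain, read 19.75, 19.15, 19.30 and 19.21. The sarcomeric actins Actc1 (18.51, 18.50, 18.42 and 18.57) and Acta1 (17.32, 17.40, 17.54 and 17.73) were abundant too, while the muscle-lineage factor Myf5 was well above background on 0 of 4 arrays. The other 19 muscle markers had percentiles of 53.7 or lower. Actin genes are alike in sequence, so probes may not tell them apart fully. Of 19 tubulin and stathmin genes 18 were well above background on 4 of 4 arrays, led by Tuba1a, Tuba1c and Tubb5.

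The 2 genes deleted in the other genotypes were well above background on the wild type arrays. Stmn1 read 17.39, 16.97, 16.80 and 17.08 on its brightest probe and averaged 14.82 ± 0.13 (SD, n = 4) on its second. The second probe read 10.83 to 11.05 on the 7 arrays labelled as lacking stathmin, and the brightest probe did not separate them (16.20 to 16.88). Cdkn1b read 14.89, 13.95, 14.23 and 14.21, at percentile 79.6, with wild type 1 the highest. This probe read 12.58 to 14.17 on the 7 arrays labelled as lacking p27, which overlaps wild type across slides. Within each slide those arrays read below the wild type and stathmin knock-out arrays. The margin was small on slide 3, with p27 knock-out 3 at 13.57 and stathmin knock-out 3 at 13.63. The probe thus read lower without p27 but kept a signal there. The other 2 Cdkn1b probes were well above background on 2 and 0 of 4 arrays, and the mean of the 3 probes put the gene at percentile 46.1. The first of these dim probes read 6.19 to 6.67 on the wild type arrays, 5.22 to 5.6 on the 7 arrays labelled as lacking p27 and 6.51 to 6.55 on stathmin knock-out 1 to 3. The array labelled stathmin knock-out 4 read 5.2 there, as low as the arrays labelled as lacking p27, so this probe goes against its label at a level near background. The brightest Cdkn1b probe read 13.50 on that array. This was below the wild type arrays but above the 12.91 and 12.93 of the arrays labelled as lacking p27 on its slide.

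Proliferation genes stayed readable after 24 h without serum. All 26 mitosis genes were well above background on 4 of 4 arrays, with a median percentile of 80.7 and a range from 59.6 to 96.3. Birc5, the survival and spindle protein survivin, read 17.57, 16.52, 16.78 and 16.84, and Mki67, the proliferation antigen Ki-67, read 16.98, 16.48, 16.19 and 16.25. Wild type 1 was the highest array for both, and also for the median of the whole list, at 14.79 against 14.11 to 14.30. This was not particular to mitosis genes. The ribosomal protein median was 19.60 on wild type 1 against 18.84 to 19.17, and that of oxidative phosphorylation 17.72 against 17.06 to 17.42. Not all lists ran this way, since the lysosome median was lowest on wild type 1, at 16.28 against 16.33 to 16.54. Of 26 DNA replication genes 25 were well above background on 4 of 4 arrays, led by the sliding clamp Pcna (16.74, 16.85, 17.08 and 16.99), Mcm6 and Rrm1. No growing wild type culture was measured, so no change with starvation can be read from these levels.

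All 23 cyclins, kinases and inhibitors of the G1 phase were well above background on 4 of 4 arrays. Ccnd2 (17.92, 18.33, 18.36 and 18.21) and Ccnd1 (16.10, 16.50, 16.33 and 16.44), the D cyclins that link growth signals to the cycle, were the brightest, followed by Cdkn2b, an inhibitor of their kinases. Genes linked to serum withdrawal and rest were also all well above background on 4 of 4 arrays (20 of 20), with a median percentile of 85.7. Gas5, a growth-arrest RNA that hosts small nucleolar RNAs, read 18.36, 18.58 and 18.50 on wild type 2 to 4, its spot on wild type 1 being an outlier. Pmp22 and Cited2 came next.

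In the insulin-like growth factor system 12 of 13 genes were well above background on 4 of 4 arrays. Igf2, the main growth factor of the family in the embryo, differed most between cultures, at 19.95, 17.64, 18.59 and 18.52, and its second probe ran the same way (18.65, 15.77, 17.13 and 17.09). Wild type 1 was the highest and wild type 2 the lowest on both probes. Igfbp7 and Igf2r, the receptor that clears Igf2, were steadier, and the binding protein Igfbp1 was well above background on 0 of 4 arrays. Of 24 growth factor receptors 20 were well above background on 4 of 4 arrays. Pdgfrb, the platelet-derived growth factor receptor of mesenchymal cells, led at 17.39, 17.17, 17.15 and 17.35, followed by Axl and Bmpr2.

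Chemokine and cytokine genes ranged widely. Ccl2, which draws monocytes, read 18.10, 18.81, 19.15 and 19.03, and Cxcl5 and Cxcl12 were also abundant; in all 26 of 29 genes were well above background on 4 of 4 arrays. Interferon response genes had a median percentile of 60.1, with 31 of 33 well above background on 4 of 4 arrays and Ifitm3, B2m and H2-K1 at the top. Their median distance from each gene's mean over the 15 arrays was -0.95, -0.83, -0.95 and -1.01 on the wild type arrays. The knock-out arrays ran from -1.13 to 2.17, with 3 of the 11 under -0.90, so the wild type cultures lay together at the low end of a range that the other arrays spanned.

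Patterning genes were at middle levels. Of 38 Hox genes, which mark position along the body axis, 34 were well above background on 4 of 4 arrays, with a median percentile of 54.3. Hoxd13, of the most distal limb and tail, was the brightest at 16.15, 14.87, 14.90 and 14.94, with wild type 1 above the others. Hoxb9 and Hoxc6, of the trunk, came next, and Hoxb1 and Hoxc12 were well above background on 0 of 4 arrays. Among 44 transcription factors of limb, body wall and mesenchyme 41 were well above background on 4 of 4 arrays. Prrx2 (16.58, 16.88, 16.66 and 16.74) and Twist2 (16.01, 16.24, 16.30 and 16.21) were the highest.

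Markers of other cell types mostly ranked low by level. Over all genes 68.3% were well above background on 4 of 4 arrays and 12.6% on 0 of 4. Liver and gut markers had 3 of 13 genes well above background on 4 of 4 arrays and 6 at 0 of 4, including Ttr, Apoa1 and Cdx2. Pluripotency and germ cell markers had 4 of 14 at 4 of 4, and 1 of these, Klf2, is common in fibroblasts too. Among endothelial markers 5 of 15 were well above background on 4 of 4 arrays, with Erg, Egfl7 and Emcn the brightest at percentiles 68.2, 54.0 and 51.3. Cdh5, Tie1 and Pecam1, of endothelial junctions and surface, were at 0 of 4. Among epithelial markers 15 of 20 were at 4 of 4, but the list median was at percentile 36.5 and the highest at 71.6 (Perp). Epcam, Cldn4 and Esrp1 were at 0 of 4. Adipocyte markers split between Fabp4 and Lpl, at percentiles 82.7 and 82.6, and Adipoq, Cfd and Lep, which were at 0 of 4.

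Macrophage and blood markers had the highest median percentile of these lists, at 44.9. Of these markers 17 of 24 were well above background on 4 of 4 arrays, a share near the 68.3% over all genes. Lyz2, the lysozyme of macrophages, read 15.98, 17.67, 17.31 and 17.48. Csf1r, the receptor that macrophages need, read 11.15, 12.95, 12.19 and 12.31, and Ptprc, the pan-leukocyte antigen CD45, read 8.10, 10.25, 9.47 and 9.65. Wild type 1 was the lowest on all 3. The list median was 8.87 on wild type 1 and 9.89 to 10.55 on the others; embryonic haemoglobin Hba-x was the only member at 0 of 4. In RNA of a whole culture, fewer cells of a type and less RNA per cell cannot be told apart.

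The flag itself was not strict. Of 906 olfactory receptor genes, which neurons of the nose use, 124 (13.7%) were still well above background on 4 of 4 arrays and 300 (33.1%) on 0 of 4. Of 13 bitter taste receptors 8 were at 0 of 4, as were 17 of 28 beta-defensin genes. In contrast all 44 genes of the Nduf family, subunits of mitochondrial complex I and its assembly factors, were well above background on 4 of 4 arrays. The weaker flag of the scanner software, a signal positive and significant against background, left 834 genes at 0 of 4 in place of 2457, and 4669 were there when every probe of a gene had to pass.

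The reference RNA, being the same on all arrays, showed how much the measurement alone varied. Among 12885 genes well above background on all 4 arrays in both channels, the median SD between arrays was 0.29 for the wild type samples and 0.10 for the reference, and the sample SD was the larger for 92.5% of these genes. In the red channel, 161 probes printed 10 times had a median SD between spots of 1 array of 0.16 to 0.19. This value comes from another channel and another set of probes than the reference SD. Spot noise of the red channel is part of the sample SD. The 4 samples differed by more than the reference did on the same arrays; labelling of each sample adds a spread that the reference may not share, and this was not measured.

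Wild type 1 stood furthest from the others. It was over 2-fold apart from wild type 2 for 1167 genes (9.06%), from wild type 3 for 1591 (12.3%) and from wild type 4 for 1628 (12.6%). Wild type 2 differed from wild type 3 for 872 genes (6.77%) and from wild type 4 for 798 (6.19%). Wild type 3 and 4 were the closest, with 202 genes (1.57%). In the reference channel the same 6 pairs, in this order, gave 0.598, 0.551, 0.341, 0.559, 0.419 and 0.582%. Wild type 3 and 4 thus differed for fewer genes than any other pair and for more than the reference on those arrays (75 genes). They were kept as separate samples because the labels call them biological replicates; the reference cannot show whether they came from separate cultures. The median over the pairs was 1019.5 genes, and 1591 without wild type 2.

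**Figure D2:**
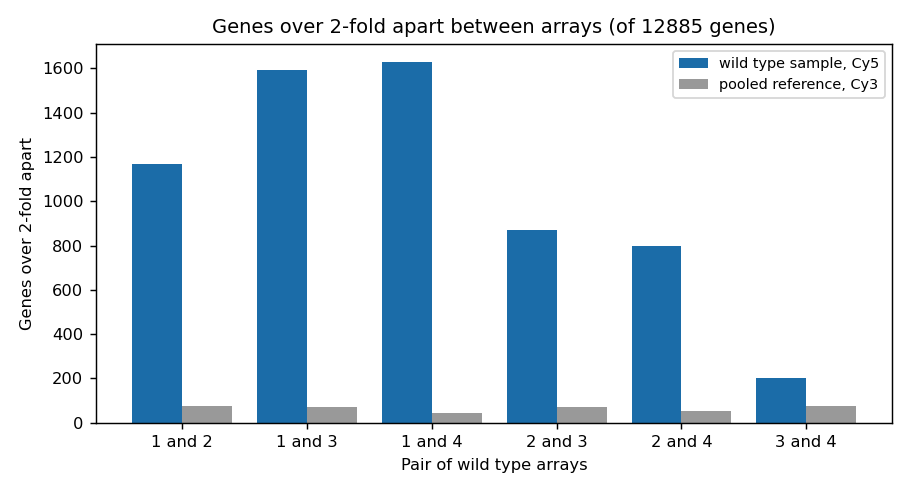
Number of genes over 2-fold apart (bars) in each of the 6 pairs of wild type arrays, for the wild type sample and for the pooled reference on the same arrays. Sample bars run from 202 for arrays 3 and 4 to 1628 for arrays 1 and 4, and reference bars from 44 to 77.

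Some bright genes hardly moved. Bpnt2, a Golgi phosphatase, read 17.01, 17.01, 17.03 and 17.02, with an SD of 0.01. P4ha2, a prolyl hydroxylase of collagen, read 16.73, 16.71, 16.71 and 16.69, and Mcm4, of the replicative helicase, read 15.95, 15.97, 15.92 and 15.94. The reference on the same probes had an SD of 0.11, 0.10 and 0.04, which is larger than the sample's, so these genes are the low end of the spread and not probes of higher precision.

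At the other end 328 of 14217 genes well above background on at least 3 arrays had an SD over 1, a number that fell to 169 without wild type 1. They were separated by whether the reference moved as well, a step added after the data were seen. In 102 genes the reference had an SD over 0.5. Mypn, a sarcomere gene, read 16.04, 13.02, 13.11 and 9.87 in the sample and 14.24, 12.06, 11.87 and 8.74 in the reference, although the reference RNA was the same. Pou3f4, a POU-domain transcription factor, read 12.43, 9.43, 9.77 and 7.02 with a reference of 10.97, 8.77, 8.82 and 6.75. In 61 of the 102 genes wild type 1 was highest and wild type 4 lowest. On the knock-out arrays the same genes were higher on slide 1 (medians 0.28 to 0.37 above each gene's mean) than on slide 4 (-0.98 to -0.64). A second probe well above background was present for 9 of the 102 genes, and 2 of these second probes had an SD over 1; the second probe of Mypn averaged 6.18 and did not show the pattern (6.12, 5.80, 6.74 and 6.07). Where sample and reference moved together, as for Mypn and Pou3f4, the sample level cannot be read as a difference between cultures.

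**Figure D3:**
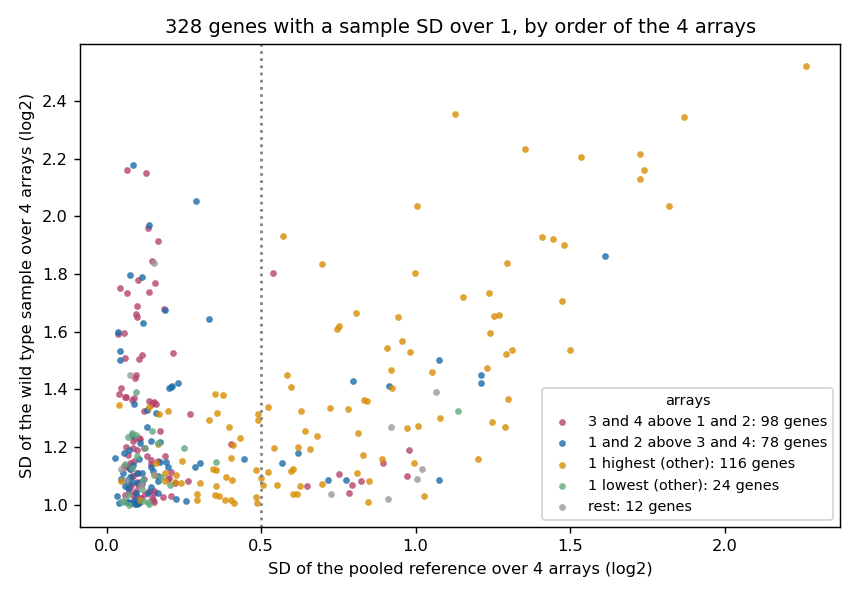
SD over the 4 arrays of the wild type sample (y axis) against that of the pooled reference (x axis), both in log2, for the 328 genes with a sample SD over 1, coloured by the order of the arrays. Genes to the right of the dotted line at 0.5 moved in the reference as well, and most of them were highest on wild type 1.

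In the other 226 genes the reference was steady, with a median SD of 0.12. The count rests on single arrays: it was 105 without wild type 1, 346 without wild type 3 and 344 without wild type 4. In 89 of the 226 genes wild type 3 and 4 were both above wild type 1 and 2, in 67 it was the reverse, in 41 others wild type 1 was the highest and in 23 others it was the lowest. The 41 genes had a median reference SD of 0.35, so their reference was less steady than that of the whole group. A second probe was available for 59 of the 226 genes and had an SD over 1 for 23. The median SD within the knock-out genotypes was 1.07 for the 226 genes and 0.40 for all 14217, so genes that varied between wild type cultures also varied within the other genotypes.

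Of the 23 immediate-early genes 9 were among the 89 genes higher on wild type 3 and 4, and 0 were in the other patterns. Over all genes, 89 of 14217 had this pattern. Egr2, a zinc finger factor induced by growth signals, read 12.32, 13.88, 16.64 and 16.66, while its reference had an SD of 0.13. Nr4a1, an orphan nuclear receptor, read 14.26, 16.96, 17.36 and 17.47, and Fos, a partner in the AP-1 factor, read 11.94, 13.22, 14.35 and 15.09. Wild type 1 was the lowest for all 3 genes, and wild type 2 lay between. Phosphatases that are induced to switch off MAP kinases ran the same way, with Dusp1 at 13.00, 13.81, 14.85 and 15.45 and Dusp6 at 14.45, 15.06, 16.44 and 16.60. Jun did not: it read 14.51, 14.38, 14.55 and 14.27.

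As a list, all 23 immediate-early genes were well above background on 4 of 4 arrays, and 9 had an SD over 1. Their median SD was 0.88, beside 0.29 for all genes well above background on 4 of 4 arrays, and 0.12 in their reference. Ccn2, Ccn1 and Ier5 were the brightest; Ccn2, a matrix-bound growth factor, read 17.83, 18.51, 19.33 and 19.28, but its reference also varied, with an SD of 1.12. The list median was 13.79, 14.54, 15.67 and 15.96 on wild type 1 to 4. Set against each gene's mean over the 15 arrays, wild type 1 to 4 lay at -0.82, -0.10, 0.83 and 0.98. Knock-out arrays covered the same range, with 0.85 on p27 knock-out 1 and 1.46 on stathmin knock-out 2 but -0.99 on p27 knock-out 4, so high and low arrays were found in more than 1 genotype.

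Of 30 genes of TGF beta, BMP and Wnt signalling 4 were among the 89, namely Id1 to Id4, and of 29 chemokine and cytokine genes 2 were, Il6 and Il11. The base over all genes was again 89 of 14217. The pattern asks for order only: Il6 read 11.17, 14.20, 14.34 and 14.49, so wild type 2 lay near wild type 3 and 4. The genes named next were chosen after their values were seen and stand for no group. Ereg, a ligand of the epidermal growth factor receptor, read 10.68, 12.75, 14.46 and 14.89, and Hbegf, another, read 13.84, 14.28, 17.16 and 16.60. Ptgs2, the inducible cyclooxygenase, read 14.31, 15.47, 17.91 and 17.91, but its reference, at 15.83, 15.70, 14.67 and 15.12, moved the other way. Id4 read 11.87, 13.46, 15.44 and 15.24, and Id3 read 14.10, 15.07, 16.20 and 16.40. Id1 and Id2 were likewise higher on wild type 3 and 4, with Id1 at 15.18, 14.87, 17.15 and 17.07. Id genes are targets of BMP signalling, and their proteins block differentiation factors. Lef1, a Wnt pathway factor, read 9.28, 8.34, 11.85 and 11.63, whereas Axin2, a target of that pathway, read 10.55, 7.99, 8.01 and 7.67 and was highest on wild type 1.

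**Figure D4:**
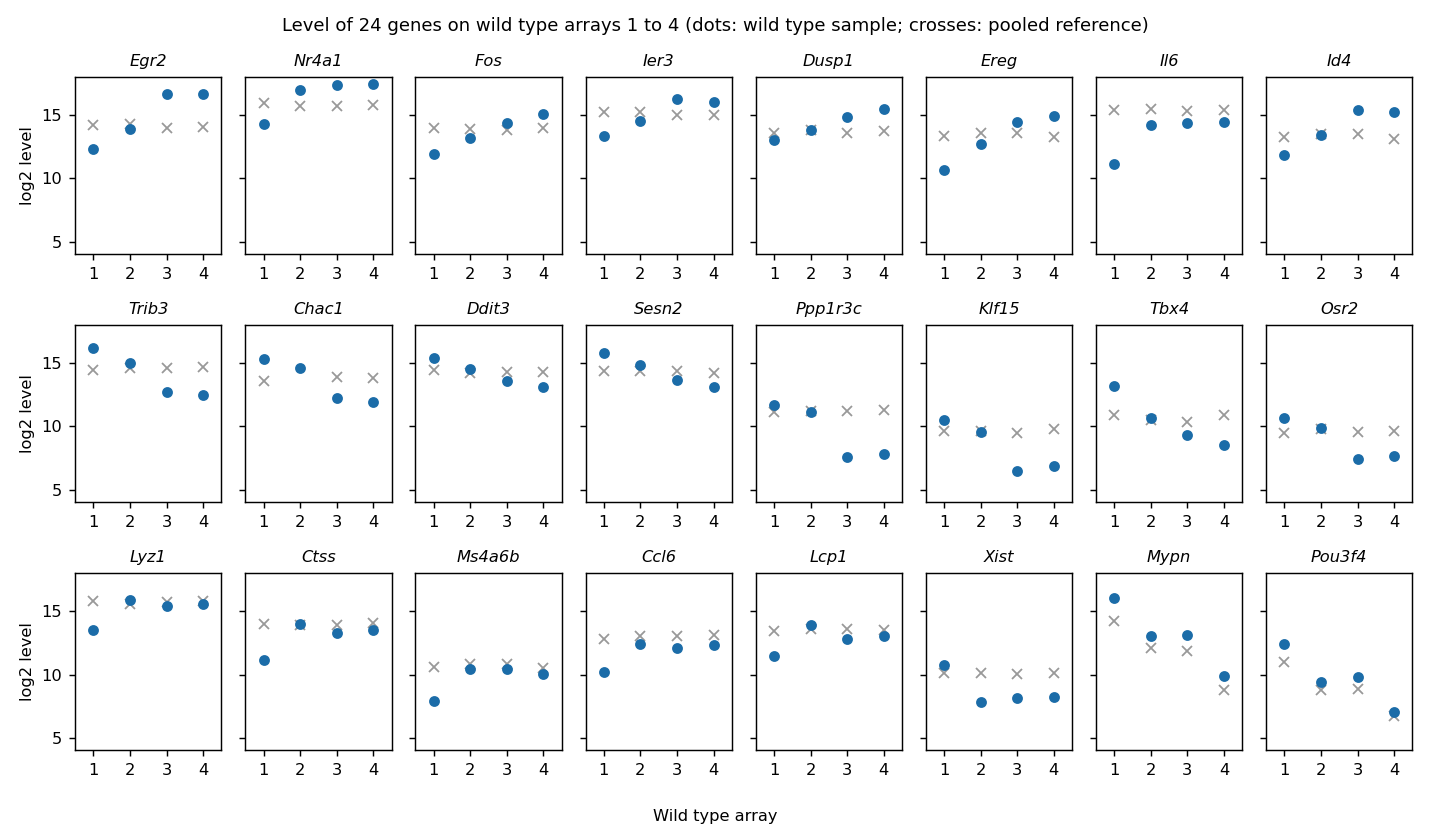
Log2 level of 24 genes on wild type arrays 1 to 4, with the wild type sample as dots and the pooled reference as crosses. Egr2 and the rest of the top row are highest on arrays 3 and 4, though Il6 and Nr4a1 are nearly as high on array 2. Trib3 and the rest of the middle row are highest on arrays 1 and 2. The crosses of Mypn and Pou3f4 in the bottom row fall with the dots.

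Examples of the reverse pattern were also chosen after their values were seen. Trib3, a pseudokinase of the stress response, read 16.17 on wild type 1, 12.73 and 12.45 on wild type 3 and 4, and between these on wild type 2; its second probe read 11.18, 10.81, 9.28 and 9.15. Chac1, which degrades glutathione, read 15.33, 14.60, 12.29 and 11.95. Ddit3, the stress factor CHOP, read 15.45, 14.51, 13.55 and 13.11, and Sesn2, a stress-induced sestrin, read 15.77, 14.87, 13.70 and 13.14. All 4 genes were highest on wild type 1 and lowest on wild type 4, with a reference SD of 0.19 or lower. Of 44 transcription factors of limb, body wall and mesenchyme, 3 (Osr2, Pitx1 and Tbx4) had the reverse pattern and 1 (Tbx3) the opposite one. Over all genes, these patterns held 67 and 89 of 14217. Ppp1r3c, of glycogen synthesis, read 11.73, 11.16, 7.58 and 7.81, Klf15 read 10.49, 9.55, 6.50 and 6.88, and the hindlimb factor Tbx4 read 13.21, 10.69, 9.30 and 8.53.

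The promoters of both groups are shown for the letters searched in them. TGACGTCA, the element bound by CREB and its relatives, was in 5 of 64 windows (7.81%) of the genes higher on wild type 3 and 4 with a steady reference, in 0 of 54 of the reverse group, in 3.14% of windows of genes on 4 of 4 arrays below the top 5%, and in 1.88% of every RefSeq window. TATAAA was in 16 of the 64 windows (25%) and 6 of the 54 (11.1%), beside 11.9% of all genes with a window and 14.2% of every RefSeq window. TGATGCAA, which C/EBP and ATF4 can bind together, was in 0 of 64 and 2 of 54 windows (3.70%), against 0.757% of all genes with a window and 0.929% of every RefSeq window. Areg, a ligand of the epidermal growth factor receptor, Dusp1 and Has1, a hyaluronan synthase, hold TGACGTCA. Chac1 and Fgf21, a stress-induced hormone, hold the reverse complement of TGATGCAA. Matches are in capitals, and the sequences are the 250 bases before the start.
Areg: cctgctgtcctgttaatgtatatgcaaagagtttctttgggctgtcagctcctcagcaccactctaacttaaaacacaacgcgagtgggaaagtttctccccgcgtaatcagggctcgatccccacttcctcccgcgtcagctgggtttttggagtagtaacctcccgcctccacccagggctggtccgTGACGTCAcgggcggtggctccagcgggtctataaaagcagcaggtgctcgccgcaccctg
Dusp1: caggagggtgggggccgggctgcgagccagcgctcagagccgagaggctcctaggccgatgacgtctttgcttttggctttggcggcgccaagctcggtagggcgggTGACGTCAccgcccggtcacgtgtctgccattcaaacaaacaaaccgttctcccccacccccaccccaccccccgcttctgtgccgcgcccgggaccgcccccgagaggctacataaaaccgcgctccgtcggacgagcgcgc
Has1: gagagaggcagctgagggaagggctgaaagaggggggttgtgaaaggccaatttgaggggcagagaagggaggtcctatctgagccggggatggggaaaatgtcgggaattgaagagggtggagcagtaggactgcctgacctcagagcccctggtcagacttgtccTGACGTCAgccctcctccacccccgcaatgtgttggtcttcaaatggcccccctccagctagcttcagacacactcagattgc
Chac1: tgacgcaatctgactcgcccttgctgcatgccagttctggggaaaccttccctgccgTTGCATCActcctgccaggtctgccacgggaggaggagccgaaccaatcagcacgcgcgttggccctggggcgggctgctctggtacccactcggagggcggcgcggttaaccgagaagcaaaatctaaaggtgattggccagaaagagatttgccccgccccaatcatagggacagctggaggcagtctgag
Fgf21: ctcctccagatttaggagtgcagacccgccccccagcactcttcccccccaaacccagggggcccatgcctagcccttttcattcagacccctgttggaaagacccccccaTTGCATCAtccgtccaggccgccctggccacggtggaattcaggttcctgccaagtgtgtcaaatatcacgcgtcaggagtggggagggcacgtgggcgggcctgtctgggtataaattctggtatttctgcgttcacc
They lie at chr5:91139349-91139598 (plus strand), chr17:26508473-26508722 (minus), chr17:17855189-17855438 (minus), chr2:119350992-119351241 (plus) and chr7:45615491-45615740 (minus) of GRCm38.p6. These counts describe letters in a window and are no test of binding.

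Of the 23 genes lowest on wild type 1 otherwise, out of 14217, 1 was on the list of 24 macrophage and blood markers, Lyz1 (13.50, 15.92, 15.39 and 15.57). Others, named after their values were seen, were the cathepsin Ctss (11.19, 13.97, 13.32 and 13.49), Ccl6 and Lcp1, known from leukocytes, and the peptide hormone genes Cck and Vip, which are not. The median SD of the 23 genes within the knock-out genotypes was 2.01. Xist, the RNA of the inactive X chromosome of female cells, read 10.74 on wild type 1 and 7.84 to 8.2 on the others, and its 3 other probes were well above background on wild type 1 only. The Y-linked genes Ddx3y (15.16, 15.39, 16.18 and 16.37), Eif2s3y (14.17, 15.06, 15.45 and 15.47) and Kdm5d (11.44, 12.68, 12.31 and 12.04) were well above background on all 4 arrays and lowest on wild type 1. Wild type 1 thus carried both signals. The labels give no sex, and the part of any such mixture in the other differences of wild type 1 was not tested.

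**Figure D5:**
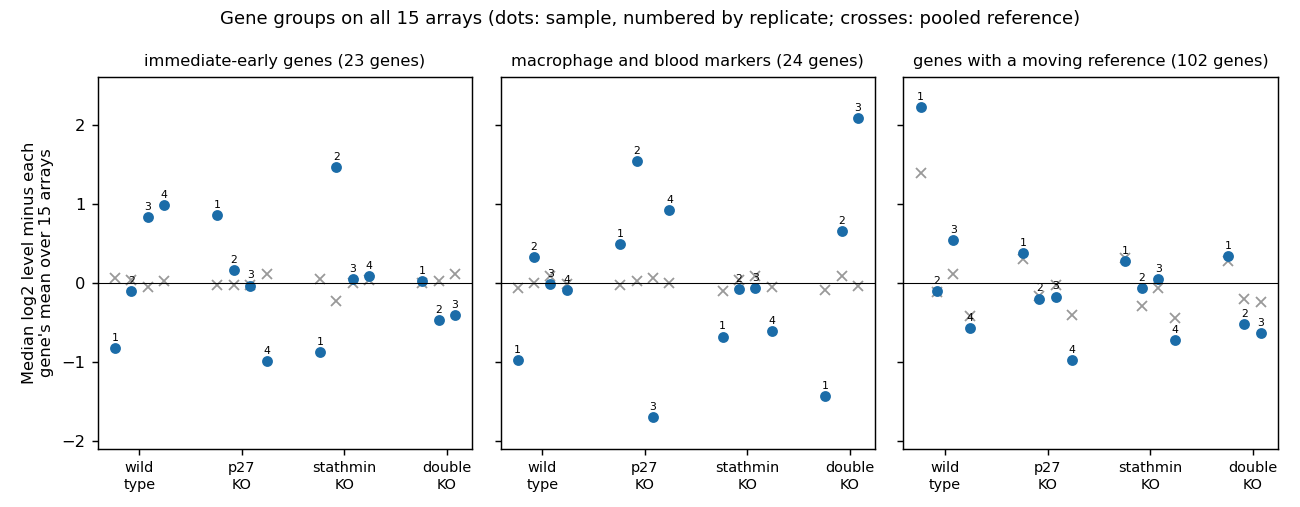
Median log2 distance of 3 gene groups from each gene's mean over the 15 arrays, by genotype, with the sample as dots numbered by replicate and the pooled reference as crosses. The immediate-early genes run from -0.82 on wild type 1 to 0.98 on wild type 4, the macrophage and blood markers are lowest among wild type arrays on wild type 1, and the 102 genes whose reference moved lie at 2.22 in the sample and 1.39 in the reference on wild type 1.

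Across genes, the mean levels of the wild type arrays followed those of the knock-out arrays. The means of the 4 wild type and 11 knock-out arrays had a Pearson r of 0.996 across genes, which are not independent replicates. Of the 13313 genes well above background on 4 of 4 wild type arrays, 12959 (97.3%) were so on all 11 knock-out arrays. No gene was at 4 of 4 in wild type and at 2 or fewer of 11 elsewhere. A gene passed if any of its probes did, and a gene lost in 1 genotype alone could not meet this rule. Cdkn1b and Stmn1 themselves were at 11 of 11, so this count cannot show likeness. In limma, with Benjamini-Hochberg adjustment and all 15 arrays, 1 of 18704 genes (0.00535%) differed between wild type and the mean of the 3 knock-out genotypes. A further count, of genes with an unadjusted p under 0.05, was 906. The contrast used the brightest probe of a gene and averaged genotypes that lack different genes. Neither Stmn1 nor Cdkn1b was called, so a change in 1 genotype or on another probe can be missed.

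That gene was Krt7, a keratin of simple epithelia. It read 12.42, 11.77, 12.58 and 12.41 on the wild type arrays, 10.75, 11.01, 9.68 and 10.48 in p27 knock-out, 10.43, 9.70, 10.34 and 10.97 in stathmin knock-out, and 10.14, 10.06 and 9.67 in double knock-out. The groups did not overlap, and the second probe of Krt7 did not overlap either, at 9.93 to 10.64 in wild type and 7.74 to 9.07 elsewhere. Krt7 had the smallest p of all genes tested on these arrays, so a gap is expected from that choice. The second probe read the same RNA and is no separate support. The share of all genes without overlap is not given here. The difference was 2.03 on the log2 scale (SE 0.26, 95% interval 1.47 to 2.58, limma adjusted p = 0.0313). It kept its direction but not its call without wild type 1, 3 or 4 (adjusted p = 0.289, 0.33 and 0.293), with wild type 3 and 4 averaged (0.305), with the slide as a block (0.252) and as a log2 ratio to the reference (0.133). Leaving out p27 knock-out 1 or 4, stathmin knock-out 1 or 3, or any 1 of the 3 double knock-out arrays also ended the call, with adjusted p from 0.06 to 0.102. Because a genotype took the same array position on every slide, genotype and position cannot be told apart.

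No other gene passed, and the next 9 by p had an adjusted p of 0.86. Pbp2 read 11.90, 12.40, 13.06 and 12.91 in wild type and was 3.02 above the knock-out mean (SE 0.60), Krt80, another keratin, was 1.29 above (SE 0.30), and Asap3 stood at a difference of -1.67 (SE 0.33). Cdkn1b was 0.77 above (95% interval 0.16 to 1.39, limma adjusted p = 0.86). Of 15 epithelial markers tested Krt7 alone was called and 14 had a higher mean in wild type, beside 11152 of 18704 over all genes tested. For the interferon response genes 0 of 33 were called by limma, and 6 had an unadjusted p under 0.05, beside 906 of 18704 over all genes tested. The wild type mean was lower for all 33 interferon response genes, with a median difference of -1.21. Over all genes tested 7552 of 18704 were lower. Lists as one-sided in the other direction were mitosis (26 of 26 higher, median 0.46), actin and contractile genes (30 of 30, median 0.38) and cytosolic ribosomal proteins (78 of 79, median 0.29), with 0 called in each. Of the 79 ribosomal protein genes 37 were saturated on at least 1 wild type array. Their differences are therefore bounded by the ceiling, whose height on each array was set by the scaling. The direction also depends on the scaling. Of genes with an unadjusted limma p under 0.05, 680 of 906 were higher in wild type, but 383 of 671 with quantile normalization. Without stathmin knock-out 4, on which 1 Cdkn1b probe near background went against the label, Krt7 was still the gene called (limma adjusted p = 0.0208).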

How the data were processed

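The authors scanned the arrays and read them out with Feature Extraction 9.1.3.1, per the file headers, and the deposited spot signals, local backgrounds and processed signals are linear intensity values; the authors' flags for background, saturation and outliers are in the same files. Per the labels, RNA was amplified with amino-allyl nucleotides and coupled to dye. The deposited value table was not used here.

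Red mean signal minus the local background median was taken for 43379 non-control spots per array, outlier spots were left out, and spots of a probe were averaged over 41174 probes. Each array was scaled to the mean 75th percentile and floored at 20 units before the log2. Probes were named through RefSeq (GRCm38.p6) by accession (22951), current symbol (6659) or older symbol (3109), which gave 19505 genes; 8455 probes kept the name in the file and were not ranked, and 1 gene had no usable spot on a wild type array. Probes of near-identical genes may share signal.

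The test was limma 3.58.1 under R 4.3.3, with a mean per genotype over 15 arrays (11 residual degrees of freedom) and genes with a probe above background on 3 or more arrays of some genotype. The median 95% interval reached 0.51 to either side. On simulated data of 18705 genes it recovered 54% of genes changed by 1 and 89% of those changed by 2 on the log2 scale. P-values set a difference against the spread between these samples, which may not be the spread between embryos or litters.

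Genes and 39 lists were chosen with earlier results of these data known. Named genes are the 4 markers, Cdkn1b and Stmn1, the 25 brightest, the 3 brightest of each list with up to 3 at 0 of 4 arrays, the 20 with the highest SD, the 10 steadiest of the brightest 25%, and the genes called or with the 10 smallest p; all others were chosen after their values were seen. Alternatives covered background correction, normalization, floor, flags, probes, blocks and left-out arrays. Some results are not reported here.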

Additional observations from a re-analysis of the deposited data

Results flagged for a closer look

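A sample far from the other 3 was looked for in 119 per-array measures, named genes and list medians, by the gap to the nearest value divided by the whole range. For independent values not chosen by their spread, chance gives about 1 such case in 20, or about 6 of 119, and 5 were found. Some of the 119 were chosen by their spread on these same arrays, and some move together. The rate is therefore a rough guide, and whether 5 is an excess cannot be decided. Xist stood out on wild type 1, which read 10.74 against 7.84 to 8.2 (ratio 0.876). Tnfsf12 was also high on wild type 1, at 11.26 against 7.14 to 7.71 (ratio 0.863), and its reference had an SD of 0.57. Vwa7 was high on wild type 4, at 9.15 against 6.78 to 7.16 (ratio 0.841), with a reference SD of 1.00. Abhd17b, among the steadiest genes, was highest on wild type 4, at 14.91 against 14.86 to 14.87 (ratio 0.861). The median of the insulin-like growth factor list was lowest on wild type 3, at 14.24 against 14.70 to 14.78 (ratio 0.855).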

How the results depend on the processing

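The call of 1 gene against the knock-out genotypes became 2 with the mean of all probes, and 0 as a loess log2 ratio, with the slide as a block or with wild type 3 and 4 averaged; leaving out 1 array gave 0 to 1. With the replicate number as a block it was also 0. The numbers did not pair the samples: of 21 same-numbered pairs 12 had a residual correlation over 0.1 (range -0.27 to 0.47), and 6 of 15 arrays were closest to their own number. The difference in the share of spots well above background ran from -3.15 to 2.25 points without 1 wild type array, and reversed without wild type 1 (1.55) or 4 (2.25). Genes at 0 of 4 arrays numbered 834 under the weaker flag and 4669 when all probes had to pass. In the reference channel the median SD was 0.10, 43 genes had an SD over 1 and the median pair had 71.5 genes over 2-fold apart. Without 1 array these ran from 0.23 to 0.30, from 169 to 482 and from 798 to 1591 in the sample. Genes with an SD over 1 and a steady reference ran from 105 to 346. The 100 brightest genes held 15.3% of the signal, and 12.7% with saturated probes left out. Of 174 named genes, 114 moved by more than their SD between arrays when all probes of a gene were averaged, by up to 45.3 percentiles; 28 did so with the processed signal and at most 2 under any other setting. The depth of an array is its signal over background: at 0 of 4 arrays a level is only a bound. The causes of these shifts were not tested.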
